A study of Mus musculus with 2 samples.

Results

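The genes described here are 9 members of the YAP and TEAD pathway, taken by symbol from the 31053 features of a single-cell RNA-seq study of mouse mesothelioma. They comprise the coactivators Yap1 and Wwtr1 (the gene of TAZ), the DNA-binding factor Tead1, the inhibitors Lats2, Amotl1 and Amotl2, and the transcriptional targets Cyr61 (Ccn1), Ctgf (Ccn2) and Ankrd1. All 9 were found among the features and all had at least 30 UMIs (the molecular tags that count captured transcripts once each) in the main cell groups compared. The members were chosen with earlier values from these libraries in view, so their levels and ratios are descriptions.

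The cells came from tumours grown in mice from AB1-HA, a mouse mesothelioma line, and were sorted live for surface CD45, the leukocyte phosphatase encoded by Ptprc. The 2 groups were tumour-bearing mice given an anti-VEGF antibody and tumour-bearing mice given a control antibody, and each group was 1 droplet library made with 3′ v3.1 chemistry. The strain and age of the mice, the antibody doses and times, and the number of animals pooled in each library are not given in the sources used here. With 1 library per group there was no replicate and no test, every interval is an exact 95% interval that covers counting error only, and each difference describes these 2 libraries.

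YAP and TAZ carry signals on cell shape, matrix stiffness and growth factors into the nucleus, where they bind TEAD factors and switch on target genes. The Hippo kinases, ending in LATS1 and LATS2, phosphorylate YAP and TAZ and hold them in the cytoplasm, and the angiomotin family holds them at junctions and on actin. The pathway is prominent in fibroblasts, mural cells, endothelium and mesothelium, and mesothelioma often loses its upstream members, whereas most leukocytes express YAP and TAZ poorly.

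TEAD factors bind the letters GGAATG, which read CATTCC on the other strand. These letters were looked up on both strands in the 300 bases around each gene's start (250 before and 50 after) in the RefSeq promoter table, build GRCm38.p6, because the members share high levels in the same cells. The table held entries for 7 of the 9 members, and 6 of these 7 had at least 1 match, beside 16.6% of the 27025 genes in the table and 14.7% of its 32851 promoters. Stretches of 60 bases are shown for the members whose match lies outside every gene annotated in GENCODE M21. They are written along the gene's strand, with the matching letters in capitals.
Yap1 promoter, chr9:8004705-8004764, GRCm38.p6, minus strand: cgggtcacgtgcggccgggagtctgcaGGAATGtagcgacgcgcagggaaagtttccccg
Wwtr1 promoter, chr3:57576014-57576073, GRCm38.p6, minus strand: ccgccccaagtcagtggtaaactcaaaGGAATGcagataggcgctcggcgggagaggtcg
Cyr61 promoter, chr3:145650056-145650115, GRCm38.p6, minus strand: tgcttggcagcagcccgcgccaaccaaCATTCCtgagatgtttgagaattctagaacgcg
In the RefSeq coordinates the Yap1 match began at position -141, the Wwtr1 match at -136 and the Cyr61 match at -103 from the start site. Ankrd1 had 2 matches, at -210 and -123, and Amotl2 had 1 at -65. The 60 bases around each of these overlapped a UTR of a GENCODE transcript of the same gene. Lats2 had 1 match, 4 bases past the start of its first entry, and none in its second entry, and the Amotl1 entry had none. The AP-1 letters TGANTCA, present in 7.81% of the promoters, were in none of the members' entries. A match is a run of letters and not a measured binding site.

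In total 213948867 UMIs over 8825 barcodes were counted with anti-VEGF and 233687412 over 11687 barcodes with control antibody, and 35 barcode sequences occurred in both. A filter on genes, UMIs and mitochondrial UMIs kept 8159 anti-VEGF and 10805 control cells. Collagen-gated cells (at least 10 UMIs per 10000 from Col1a1, Col1a2 and Col3a1, with 2 of the 3 genes detected, and below the macrophage gate) were 500 anti-VEGF cells, 6.13% of those kept (95% interval 5.62 to 6.67%), and 386 control cells, 3.57% (3.23 to 3.94%). Macrophage-marker cells (the same level from C1qa, C1qb, C1qc, Adgre1, Csf1r and Fcgr1, with 4 of the 6 detected, and below the collagen gate) were 4258 anti-VEGF and 5760 control cells.

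The sorted label was checked against Ptprc. It was detected in 9.6% of anti-VEGF and 9.59% of control collagen-gated cells, at medians of 36537 and 33522 UMIs per cell, and in 90.5% of anti-VEGF and 81.0% of control macrophage-marker cells, at medians of 23200.5 and 20383 UMIs. Most collagen-gated cells therefore went against the CD45 label at the RNA level. They carried fibroblast markers, with summed levels of the 6 genes Pdgfra, Dcn, Lum, Dpt, Pi16 and Thy1 of 354 CPM (UMIs per 1000000 UMIs of the group) in anti-VEGF and 319 CPM in control cells. Summed markers of mesothelium and the tumour line were 240 and 192 CPM in anti-VEGF and control cells, nearly all from Msln and Krt8, with Lrrn4 at 0 in both libraries and Upk3b at 0 in anti-VEGF. The 5 endothelial markers summed to 3.12 and 1.96 CPM and the 5 mural markers to 25.7 and 29.1 CPM, mostly Pdgfrb. The gate is thus defined by collagen and is not 1 cell type.

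All members apart from Lats2 were high in collagen-gated cells and near 0 in macrophage-marker cells, in both libraries. In the anti-VEGF library 8 of the 9 members were at least 2-fold higher in collagen-gated cells, where 17.9% of 13543 genes were, and in the control library the same 8 were, against 16.9% of 13681 genes. The median log2 ratio of the members was 4.31 in the anti-VEGF library and 5.43 in the control library, beside 0.15 and 0.11 for all genes. After each cell was thinned to 5000 UMIs, a UMI of any of these 8 genes was found in 87.9% of anti-VEGF collagen-gated cells and in 3.0% of anti-VEGF macrophage-marker cells. The same shares in the control library were 91.3% and 2.12%. Thinning left out 72 anti-VEGF and 88 control collagen-gated cells, and 227 anti-VEGF and 1174 control macrophage-marker cells.

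**Figure D1:**
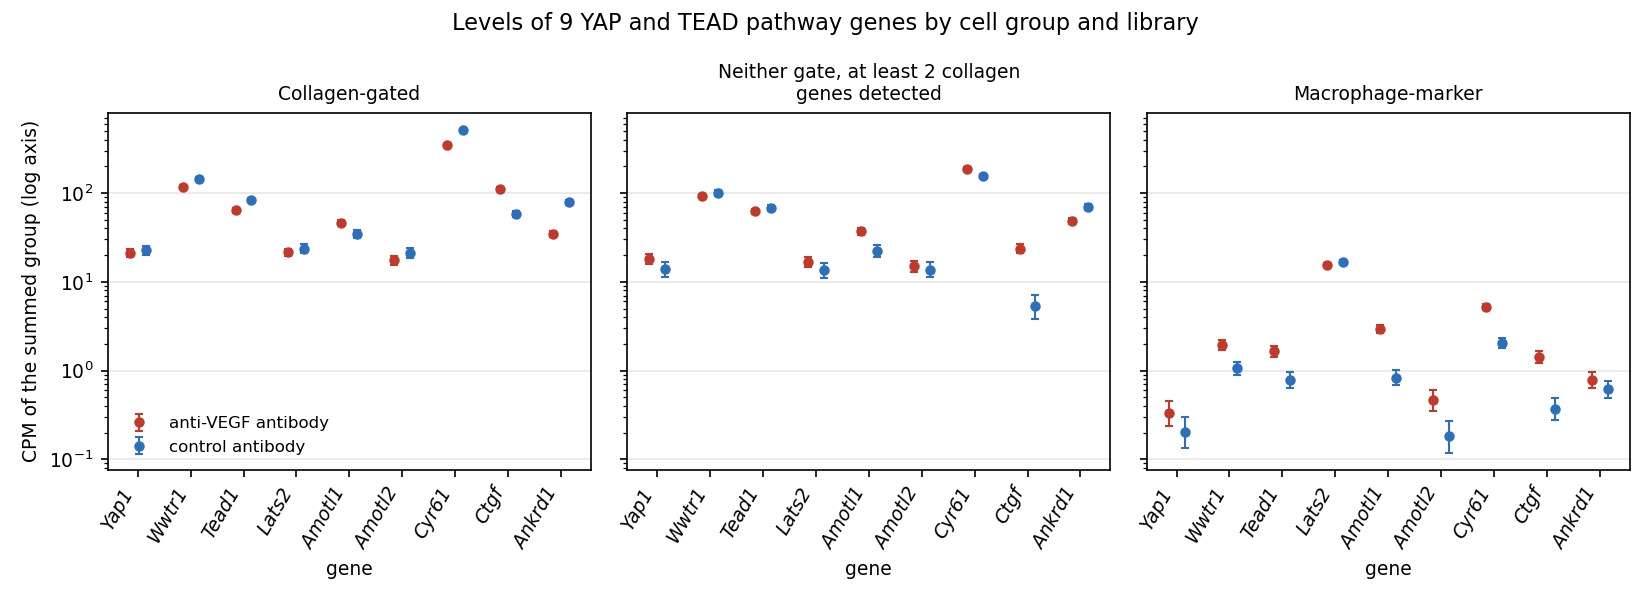
Summed level in CPM (log axis, exact 95% Poisson intervals) of the 9 members in collagen-gated cells, in cells of neither gate with at least 2 of the 3 collagen genes detected, and in macrophage-marker cells, with the anti-VEGF library left of the control library for each gene. Lats2 is the one member at a like level in all 3 panels, and the other 8 lie below 6 CPM in macrophage-marker cells.

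Yap1 (ENSMUSG00000053110, protein coding, chr9:7931999-8004596, minus strand, GRCm38) encodes the founding coactivator of the pathway. Its level in collagen-gated cells was 21.3 CPM (95% interval 19.2 to 23.5, 395 UMIs) with anti-VEGF and 22.6 CPM (299 UMIs) with control antibody. In macrophage-marker cells it was 0.335 CPM (39 UMIs) with anti-VEGF and 0.204 CPM (27 UMIs) with control antibody. Yap1 RNA was thus confined largely to collagen-expressing cells, and its counts there did not separate the libraries.

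Wwtr1 (ENSMUSG00000027803, chr3:57455649-57575910, minus strand) encodes TAZ, the paralogue of YAP. Collagen-gated cells held 118 CPM with anti-VEGF and 144 CPM with control antibody, a ratio of 0.817 (0.768 to 0.870). Macrophage-marker cells held 1.93 and 1.07 CPM in the anti-VEGF and control libraries. A Wwtr1 UMI was seen in 94.6% of anti-VEGF and 89.3% of control collagen-gated cells with at least 5000 UMIs, so that it marked nearly every such cell. The share with a UMI after thinning, 45.8% with anti-VEGF and 40.9% with control antibody, ran against the summed level, and no order of the libraries is read from it.

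Tead1 (ENSMUSG00000055320, chr7:112679318-112906807, plus strand) encodes a DNA-binding partner of both coactivators. It stood at 64.0 CPM in anti-VEGF and 83.4 CPM in control collagen-gated cells, a ratio of 0.768 (0.707 to 0.834), and at 1.66 and 0.787 CPM in anti-VEGF and control macrophage-marker cells. Tead2, its paralogue in the same family, showed the same contrast between cell groups, with 76.7 CPM in collagen-gated and 1.69 CPM in macrophage-marker cells of the anti-VEGF library. Tead3 had 8.40 and 0.215 CPM there. Vgll4, a corepressor that competes with YAP for TEAD, was unlike them, with 23.0 CPM in collagen-gated and 23.6 CPM in macrophage-marker cells of the anti-VEGF library, and 26.2 and 26.1 CPM in the control library.

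Lats2 (ENSMUSG00000021959, chr14:57689662-57758388, minus strand) encodes the kinase that phosphorylates YAP and TAZ. It was the member that macrophage-marker cells also expressed. Its level was 21.5 CPM in collagen-gated and 15.5 CPM (1802 UMIs) in macrophage-marker cells of the anti-VEGF library, and 23.6 and 16.7 CPM (2210 UMIs) in those of the control library. Of all its UMIs, 59.1% in the anti-VEGF and 67.0% in the control library came from macrophage-marker cells. Its counts were spread over many of these cells, with a UMI in 30.4% of anti-VEGF and 26.5% of control macrophage-marker cells and at most 5 and 8 UMIs in 1 cell. The highest 1% of macrophage-marker cells held 9.05% of its anti-VEGF and 11% of its control UMIs. After thinning, Lats2 was detected in 11% of anti-VEGF and 11.4% of control collagen-gated cells and in 7.22% and 7.89% of macrophage-marker cells. Lats1, the related kinase, had 25 CPM in collagen-gated and 13.2 CPM in macrophage-marker cells of the anti-VEGF library.

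Amotl1 (ENSMUSG00000013076, chr9:14541966-14645056, minus strand) and Amotl2 (ENSMUSG00000032531, chr9:102716672-102733418, plus strand) encode angiomotin-like scaffolds that bind YAP. Amotl1 was higher with anti-VEGF in collagen-gated cells, at 46.3 CPM (860 UMIs) against 34.6 CPM (459 UMIs) with control antibody, a ratio of 1.34 (1.19 to 1.5). Amotl2 went the other way, at 17.4 CPM with anti-VEGF and 21.1 CPM with control antibody, a ratio of 0.823 (0.699 to 0.969). Amot, the third gene of the family, was at 21.9 CPM with anti-VEGF and 31.2 CPM with control antibody, a ratio of 0.701 (0.610 to 0.806). Within 1 gene family the libraries thus differed in both directions.

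The 3 target genes differed most between the antibodies, and not in a common direction. In collagen-gated cells 1 of the 9 members, Ctgf, was at least 1.5-fold higher with anti-VEGF on the log2(CPM + 1) scale, where 3.08% of 11632 genes were. Likewise 1 member, Ankrd1, was at least 1.5-fold lower, where 2.48% of genes were. Cyr61 lay just inside that limit, and Tead1 was the next lowest. The median log2 ratio of the members was -0.27, beside -0.06 for all genes.

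Ctgf (ENSMUSG00000019997, chr10:24595442-24598683, plus strand) encodes connective tissue growth factor, a secreted CCN protein of fibrotic matrix. It stood at 111 CPM (95% interval 107 to 116, 2066 UMIs) in anti-VEGF and 58.3 CPM (54.2 to 62.5, 772 UMIs) in control collagen-gated cells. The ratio was 1.91 (1.76 to 2.08), a log2 difference of 0.92 at percentile 98.6 of the 11632 genes. The thinned share of collagen-gated cells with a UMI was also higher with anti-VEGF, at 25% (21.0 to 29.4%) against 16.8% (12.7 to 21.5%) with control antibody. The corresponding shares of macrophage-marker cells were 0.248% and 0.218%.

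Cyr61 (ENSMUSG00000028195, chr3:145646976-145649981, minus strand) encodes the CCN protein closest in use to Ctgf as a reporter of YAP activity, and its difference ran the opposite way. It had 345 CPM (6411 UMIs) in anti-VEGF and 513 CPM (6793 UMIs) in control collagen-gated cells. The ratio was 0.673 (0.651 to 0.697), a log2 difference of -0.57 at percentile 2.72. A UMI was found after thinning in 48.8% (44.0 to 53.7%) of anti-VEGF and 61.7% (56.0 to 67.3%) of control collagen-gated cells, against 0.670% and 0.545% of macrophage-marker cells.

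Ankrd1 (ENSMUSG00000024803, chr19:36111961-36120099, minus strand) encodes an ankyrin repeat protein of nucleus and sarcomere that YAP induces strongly. It was the lowest of the members relative to control, with 34.3 CPM (637 UMIs) in anti-VEGF and 79.4 CPM (1052 UMIs) in control collagen-gated cells. The ratio was 0.432 (0.391 to 0.477), a log2 difference of -1.19 at percentile 0.129. After thinning, 12.9% of anti-VEGF and 23.8% of control collagen-gated cells had an Ankrd1 UMI, against 0.149% and 0.174% of macrophage-marker cells. Ctgf and Ankrd1 therefore lay near opposite ends of the same ranking.

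**Figure D2:**
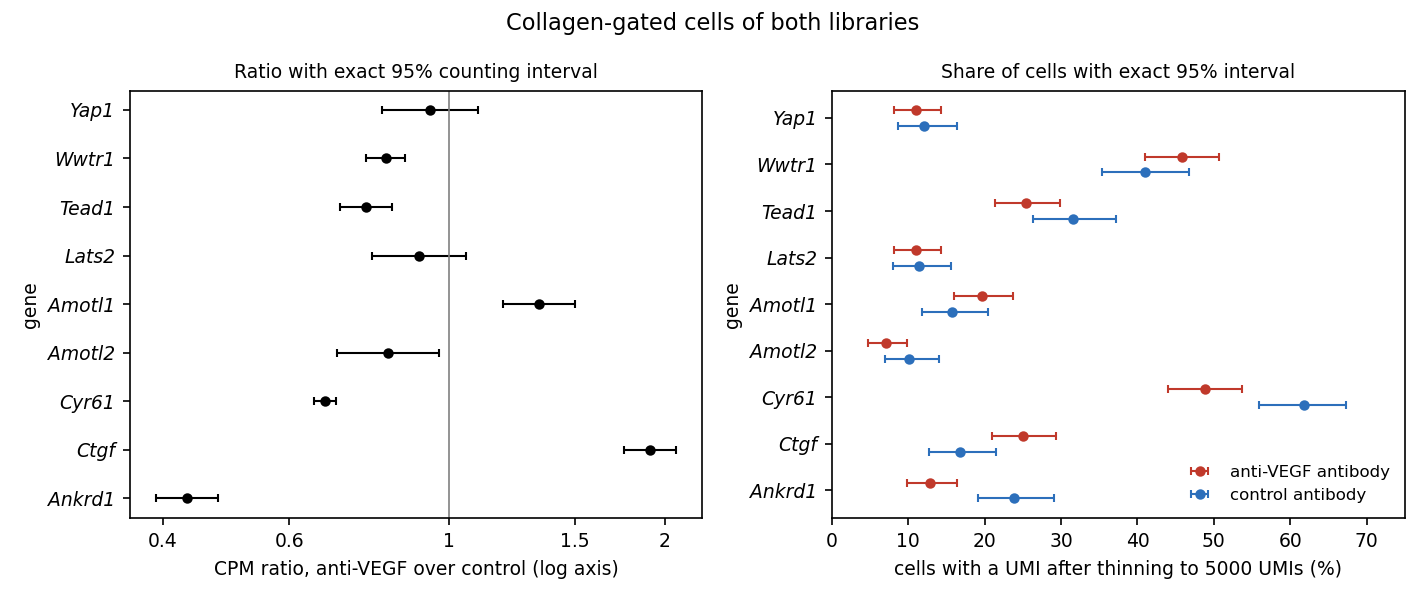
Left, CPM ratio of anti-VEGF over control in collagen-gated cells (log axis) with exact 95% counting intervals, 1 row per member; right, share of collagen-gated cells with a UMI after thinning to 5000 UMIs, with exact 95% binomial intervals, the anti-VEGF library drawn above the control library. Ctgf (1.91) and Ankrd1 (0.432) are the extremes of the ratios, and Wwtr1 is higher with anti-VEGF in the share but lower in the summed level.

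Cells within the collagen gate varied widely in the 3 targets. Over the 428 anti-VEGF and 298 control collagen-gated cells with at least 5000 UMIs, the median Cyr61 level was 113 CPM per cell with anti-VEGF and 223 CPM with control antibody. Its highest cell reached 4008 CPM in the anti-VEGF and 4778 CPM in the control library, and the ranges overlapped almost wholly. For Ctgf the median was 0 in both libraries, since 52.6% of anti-VEGF and 61.7% of control cells had no UMI. The 90th percentile of Ctgf was 494 CPM with anti-VEGF and 184 CPM with control antibody, so the libraries differed in the upper part of the distribution. The top 10% of cells held 62.2% of the anti-VEGF and 72.3% of the control Ctgf UMIs.

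Ankrd1 had a median of 0 CPM in anti-VEGF and 19.4 CPM in control cells, with 90th percentiles of 88.1 and 201 CPM. The top 10% of cells held 56.8% of its UMIs with anti-VEGF and 57.7% with control antibody. Wwtr1 was the most even of the members, with a median of 107 CPM in anti-VEGF and 126 CPM in control cells and 27.4% and 29.0% of its UMIs in the top 10% of cells. Like the median, its 90th percentile was lower with anti-VEGF, at 216 CPM against 282 CPM with control antibody. The lower quartile ran the other way, at 63.4 CPM with anti-VEGF and 58.6 CPM with control antibody.

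**Figure D3:**
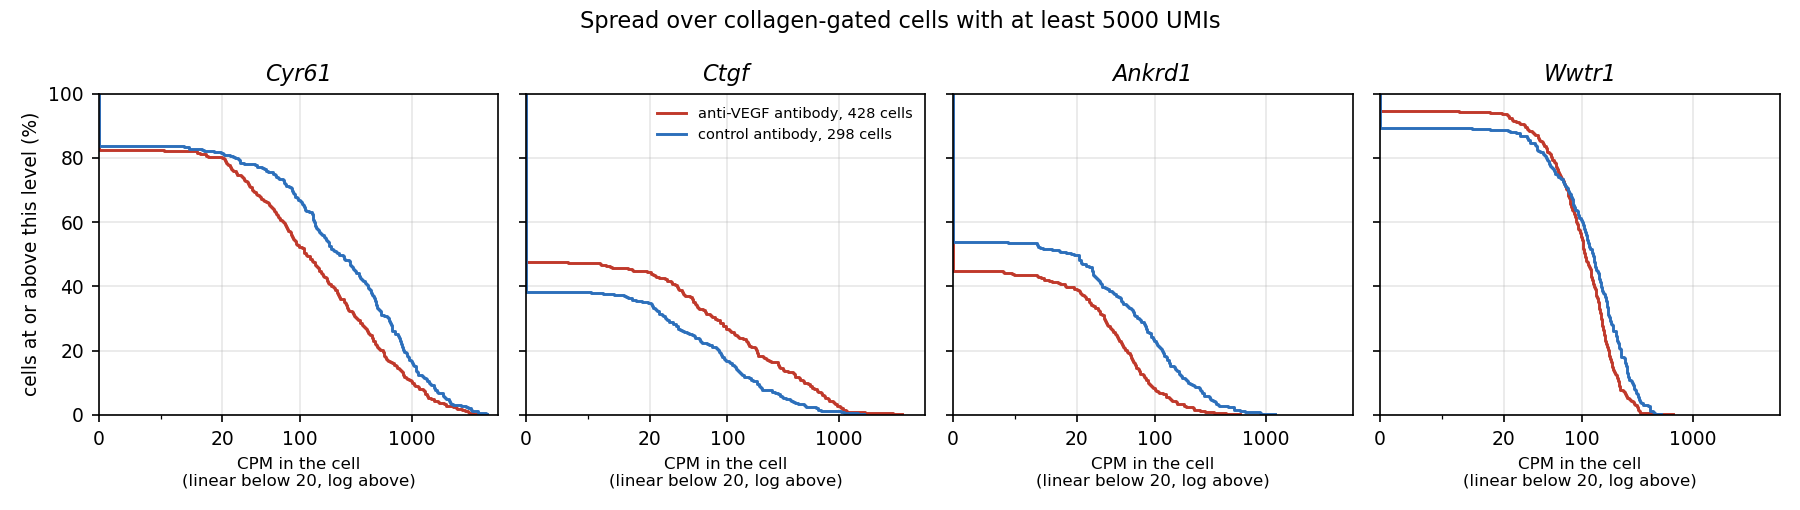
Share of collagen-gated cells with at least 5000 UMIs (y axis, percent) at or above a given level (x axis, CPM in the cell, linear below 20 and log above) for Cyr61, Ctgf, Ankrd1 and Wwtr1 in 428 anti-VEGF and 298 control cells. The Ctgf curve of the anti-VEGF library lies above that of control over most of its range and the Cyr61 and Ankrd1 curves lie below it, while the Wwtr1 curves cross.

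Levels of the members went together only weakly from cell to cell. Pearson r was taken over log levels in collagen-gated cells with at least 5000 UMIs, without thinning. Over the 36 pairs of members its median was 0.08 in the anti-VEGF and 0.13 in the control library. The highest pair was Cyr61 with Ctgf in both, at r = 0.32 (n = 428 cells) and 0.39 (n = 298 cells), and the next in the control library was Wwtr1 with Tead1, at 0.34. These are descriptions across cells of 1 library, which share preparation and differ in depth. Most other values are too low to read at these counts. Cyr61 detection went with immediate early genes, which respond within minutes to serum or handling, though not with these alone. Fos was detected in 86.1% of anti-VEGF collagen-gated cells with a thinned Cyr61 UMI and in 65.8% of those without one, and in the control library in 87.5% and 52.6%. Atf3, another gene of this class, was detected in 26.8% and 14.2% of these anti-VEGF cells and in 44.6% and 21.1% of these control cells. Wwtr1, outside the class, was detected in 55.0% and 37.0% of the anti-VEGF and in 45.1% and 34.2% of the control cells. For Tead1 the shares were 25.4% and 25.6% with anti-VEGF and 33.2% and 28.9% with control antibody.

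Because collagen-gated cells are mixed, the targets were followed in splits of the gate. Car9, the hypoxia-induced carbonic anhydrase, was detected in 50.8% of anti-VEGF and 24.9% of control collagen-gated cells, at 123 and 35.9 CPM. Ctgf was higher with anti-VEGF among cells with Car9, at 116 CPM against 40.8 CPM with control antibody (ratio 2.85, 2.44 to 3.34). Among cells without Car9 it was 104 CPM against 67.4 CPM (1.54, 1.38 to 1.72). Ctgf was thus higher with anti-VEGF on both sides of the Car9 split.

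Ankrd1 was lower with anti-VEGF on both sides as well, at 36.8 CPM against 61.3 CPM in control cells with Car9 (0.60, 0.514 to 0.702) and 30.5 CPM against 88.8 CPM in control cells without it (0.343, 0.295 to 0.399). Cyr61 had ratios of 0.758 with Car9 and 0.677 without. Within a library, Car9 went with the targets in different ways. In cells lacking Ptprc, those with Car9 were deeper, at medians of 40473 against 26970 UMIs in the anti-VEGF library. In the control library these medians were 47583 and 24341 UMIs, and the part of depth was not tested. Among cells without Ptprc, Ctgf was at 119 CPM in cells with Car9 and 103 CPM in cells without it in the anti-VEGF library (ratio 1.15, 1.04 to 1.26). In the control library it was at 40.9 CPM in cells with Car9 and 71.3 CPM in cells without it (0.575, 0.477 to 0.689). In that control comparison 2 of the 9 members, Ctgf and Ankrd1, were at least 1.5-fold lower with Car9, where 5.32% of genes were, and in the anti-VEGF library 0 members were, where 5.85% of genes were.

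Cells with at least 2 of Msln, Krt8, Krt18 and Krt19, genes of mesothelium and of the tumour line, made up 17.4% of anti-VEGF and 15% of control collagen-gated cells. They held less Ctgf than the other collagen-gated cells in both libraries, at 41.7 CPM against 134 CPM with anti-VEGF (0.311, 0.267 to 0.362) and 31.5 CPM against 65.2 CPM with control antibody (0.483, 0.381 to 0.605). Amotl2 was also at least 1.5-fold lower in them in the control library, making 2 of 9 members where 9.02% of genes were, and in the anti-VEGF library the 2 were Ctgf and Ankrd1, where 6.23% of genes were. Between the antibodies, Ctgf in these cells was 41.7 CPM with anti-VEGF and 31.5 CPM with control antibody (1.32, 1.02 to 1.73), the smallest of its ratios in these splits. Ankrd1 kept a ratio of 0.360 in them and 0.455 in the others. The cells with these genes were deeper, at medians of 51454 against 31925 UMIs with anti-VEGF. With control antibody the medians were 48149 and 30423.5 UMIs, and the part of depth was not tested.

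Of the 6 fibroblast markers, 2 were at least 1.5-fold higher with anti-VEGF in the gate, where 3.08% of all genes were. They were Pi16, at 26.9 against 8.0 CPM, and Thy1, at 6.89 against 1.66 CPM. None was lower, where 2.48% of all genes were, with ratios between 0.875 for Lum and 1.26 for Dpt in the other 4. Cells with a UMI of Pi16 or Thy1 were 13.8% of anti-VEGF and 13.5% of control collagen-gated cells. Ctgf had a ratio of 1.67 (1.4 to 2.0) in cells with a UMI of either and 1.98 (1.80 to 2.18) in cells without, and Ankrd1 0.280 and 0.456. Among collagen-gated cells with Ptprc (48 anti-VEGF and 37 control) Ctgf was at 105 CPM with anti-VEGF and 39.0 CPM with control antibody. Among those without Ptprc it was at 112 and 61.4 CPM. The neutrophil markers, which these cells should lack, summed to 15.2 CPM in anti-VEGF and 1.74 CPM in control collagen-gated cells, and their part in these results was not tested.

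**Figure D4:**
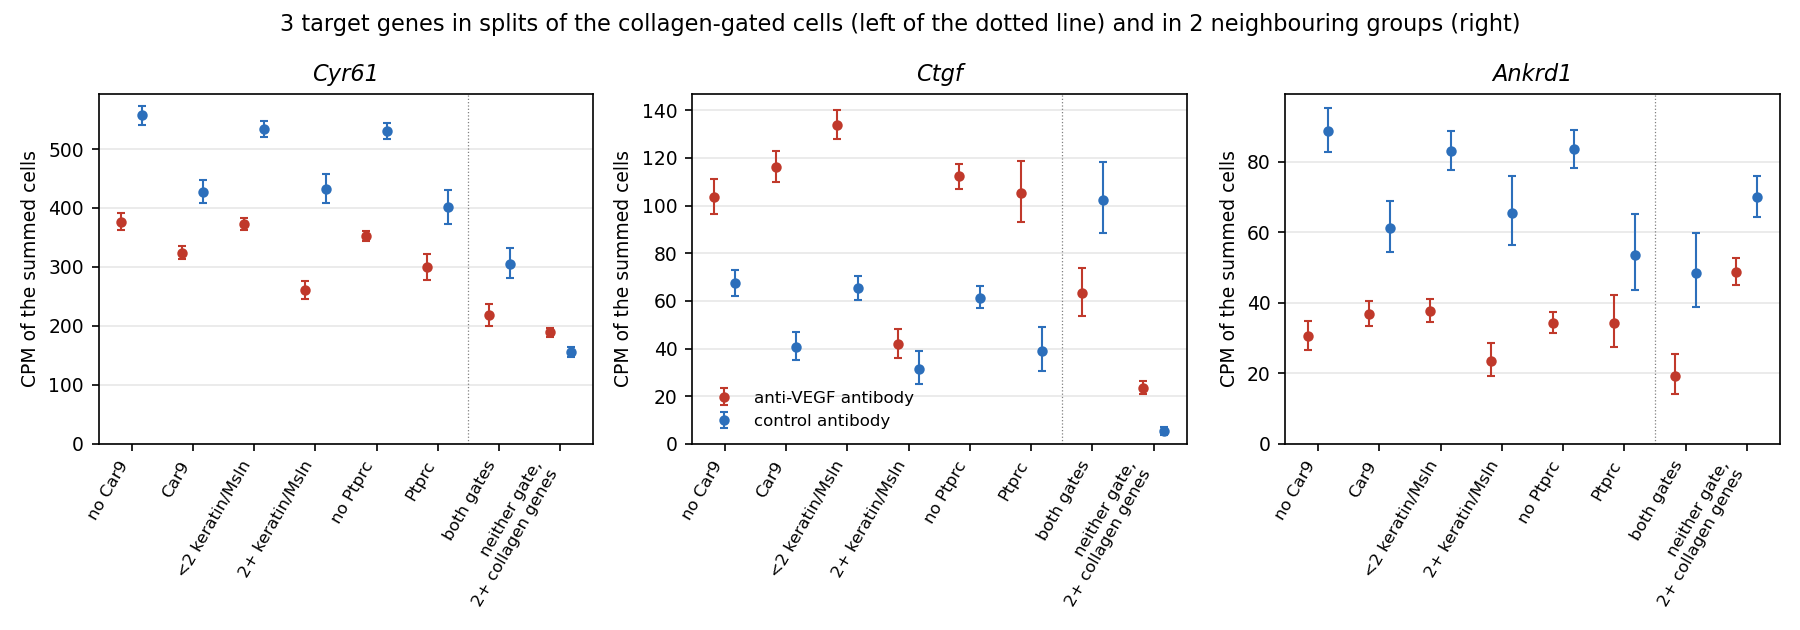
Summed level in CPM (exact 95% Poisson intervals) of Cyr61, Ctgf and Ankrd1 in collagen-gated cells split by detection of Car9, of at least 2 of Msln, Krt8, Krt18 and Krt19, and of Ptprc, and, right of the dotted line, in cells of both gates and of neither gate with 2 collagen genes, with the anti-VEGF library left of the control library. Ctgf is higher with anti-VEGF in all 6 splits of the gate, and lower in cells of both gates (63.1 and 102.5 CPM).

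Cells outside the gate did not all follow it. The 286 anti-VEGF and 203 control cells of neither gate with at least 2 collagen genes detected had Ctgf at 23.6 and 5.28 CPM (4.47, 3.24 to 6.30) and Ankrd1 at 48.7 and 70.0 CPM (0.697, 0.621 to 0.782), as in the gate. Cyr61, however, was at 189 CPM with anti-VEGF and 155 CPM with control antibody there (1.22, 1.14 to 1.30), the reverse of its order in the gate. In these cells 2 of 9 members, Ctgf and Amotl1, were at least 1.5-fold higher, where 4.39% of genes were. In the 40 anti-VEGF and 49 control cells that passed both gates, Ctgf was at 63.1 and 102.5 CPM (0.616, 0.495 to 0.765), lower with anti-VEGF, with Ankrd1 at 19.2 and 48.5 CPM. Median depths there were 62039 UMIs per cell with anti-VEGF and 26310 with control antibody, and 1 cell held 137 of the 1120 anti-VEGF and 1 held 233 of the 1209 control UMIs of the 8 members other than Lats2. In these cells of both gates 3 of 9 members (Ankrd1, Ctgf and Wwtr1) were at least 1.5-fold lower, where 8.71% of genes were.

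In macrophage-marker cells all members but Lats2 had low counts. On the log2(CPM + 1) scale 3 of 9 members (Amotl1, Cyr61 and Ctgf) were at least 1.5-fold higher, where 2.68% of 14004 genes were, and 0 were lower, where 1.44% of genes were. The ratios of Yap1 (1.64, 0.978 to 2.78) and Ankrd1 (1.26, 0.924 to 1.72) had intervals that include 1. Cyr61 had 5.22 CPM (608 UMIs) with anti-VEGF and 2.05 CPM (271 UMIs) with control antibody. Ctgf had 1.41 CPM (164 UMIs) and 0.371 CPM (49 UMIs). These 2 secreted targets were gathered in few cells, since the highest 1% of macrophage-marker cells held 86.8% of the anti-VEGF and 76.0% of the control Cyr61 UMIs, and 1 anti-VEGF cell held 94 of them. Markers of other leukocytes also differed in these cells. The 6 neutrophil markers summed to 209 CPM with anti-VEGF and 65.8 CPM with control antibody, with 3 of 6 (S100a8, S100a9 and G0s2) at least 1.5-fold higher. Cxcr2 was at 1.20 and 0.492 CPM, and the Retnlg interval included 1 (1.23, 0.991 to 1.52). Csf3r ran the other way, at 9.96 CPM with anti-VEGF and 11.9 CPM with control antibody (0.835, 0.773 to 0.901). The 8 lymphocyte markers summed to 20.1 and 34.6 CPM, with 4 of 8 lower. Their part in the members' counts was not tested.

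Macrophage-marker cells were therefore divided by whether they held any UMI of the 3 collagen genes, a split chosen after the values were seen. Among the 697 anti-VEGF and 791 control cells with a collagen UMI, Cyr61 was at 21.0 CPM with anti-VEGF and 6.96 CPM with control antibody (3.02, 2.53 to 3.61), and Ctgf at 5.49 and 0.662 CPM (8.29, 4.92 to 14.9). These Ctgf values rest on few cells. With anti-VEGF 24 cells held 137 UMIs, 65 of them in 1 cell, and with control antibody 7 cells held 16, 10 of them in 1 cell. Among the 3561 anti-VEGF and 4969 control cells without one, Cyr61 was at 0.917 and 0.954 CPM (0.962, 0.712 to 1.30), and Ctgf at 0.295 and 0.305 CPM (0.965, 0.558 to 1.65). Wwtr1 in the cells without a collagen UMI was at 0.546 and 0.426 CPM (1.28, 0.842 to 1.96). The higher Cyr61 and Ctgf counts of the anti-VEGF library were thus in cells with collagen RNA, and no difference in either gene was detectable in cells without it, within intervals that reach 1.30 and 1.65.

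Amotl1 behaved differently. In macrophage-marker cells without a collagen UMI it was at 2.31 CPM (212 UMIs) with anti-VEGF and 0.555 CPM (60 UMIs) with control antibody, a ratio of 4.17 (3.12 to 5.65). It was found in 4.91% (4.23 to 5.68%) of these anti-VEGF cells and 1.15% (0.870 to 1.48%) of these control cells, with at most 3 and 2 UMIs in a cell, at median depths of 22503 and 19646 UMIs. The difference was thus spread over cells and not carried by a few. Thinned shares were taken only over all macrophage-marker cells, those with a collagen UMI included. There, however, Amotl1 was detected in 0.943% of anti-VEGF and 0.567% of control cells, shares too low to read an order from. Tead1 had 0.513 and 0.268 CPM in the cells without collagen UMIs (1.91, 1.18 to 3.15), from 47 and 29 UMIs. Lats2 was at 15.3 CPM with anti-VEGF and 16.6 CPM with control antibody in them (0.918, 0.856 to 0.985), close to its level in all macrophage-marker cells.

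**Figure D5:**
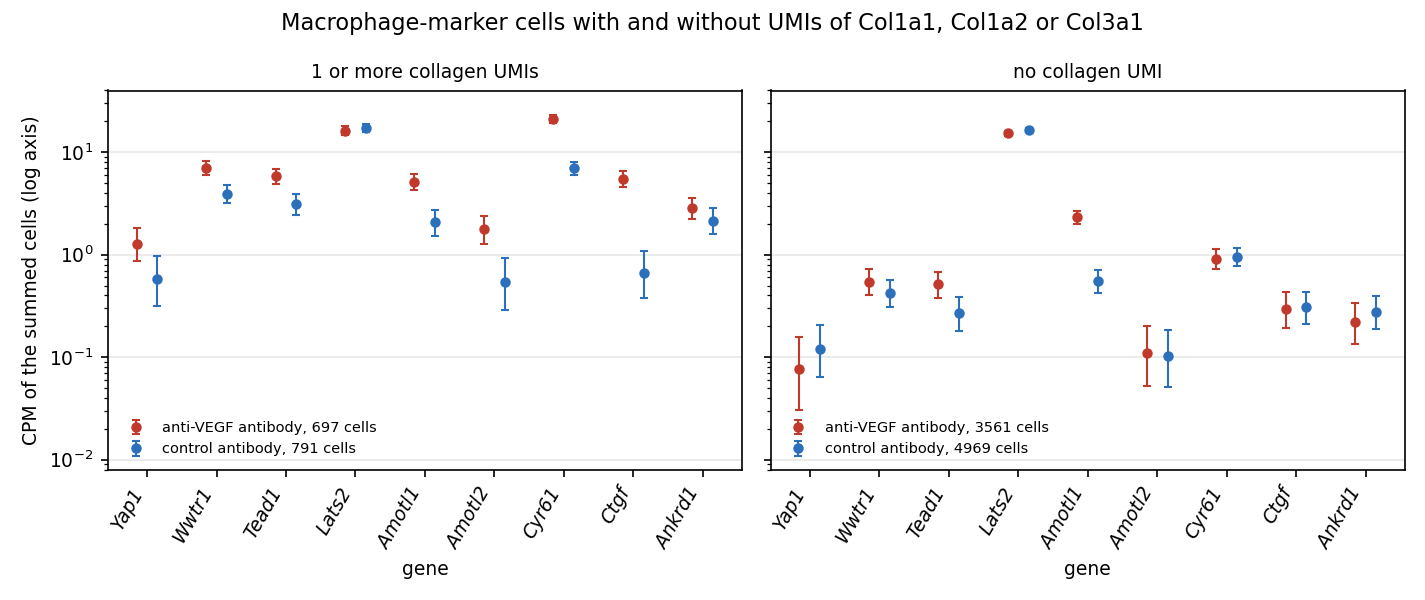
Summed level in CPM (log axis, exact 95% Poisson intervals) of the 9 members in macrophage-marker cells with at least 1 collagen UMI (left) and with none (right), with the anti-VEGF library left of the control library for each gene. Without collagen UMIs, Cyr61 (0.917 and 0.954 CPM) and Ctgf (0.295 and 0.305 CPM) coincide between the libraries, whereas Amotl1 (2.31 and 0.555 CPM) does not.

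The remaining sorted cells were mostly of neither gate. Neutrophil-marker cells (214 anti-VEGF and 45 control) had 25 and 1 UMIs of the 8 members other than Lats2. Lymphocyte-marker cells (69 and 117) had 163 UMIs in the anti-VEGF library, 86 of them in 1 cell and all in 3 cells, and 9 in the control library. The 2792 anti-VEGF and 4245 control cells of neither gate with fewer than 2 collagen genes had 8 of 9 members at least 1.5-fold higher with anti-VEGF, where 6.01% of 13096 genes were. Tead1 there was at 3.97 and 0.536 CPM and Yap1 at 2.02 and 0.313 CPM. This remainder is a mixture of cell types, with medians of 18121 and 6462 UMIs per cell, and the part of that depth gap was not tested. Summed over all kept cells, 3 of 9 members (Ctgf, Amotl1 and Yap1) were at least 1.5-fold higher with anti-VEGF, where 3.61% of 15353 genes were. From that sum alone a larger share of collagen-gated cells and more RNA per cell cannot be told apart. Within collagen-gated cells the ratios of these genes were 1.91 for Ctgf, 1.34 for Amotl1 and 0.942 (0.809 to 1.10) for Yap1.

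Among these 4 groups of cells (collagen-gated, both gates, neither gate with 2 collagen genes, and macrophage-marker), collagen-gated cells had the highest level of 7 of the 9 members with anti-VEGF, Lats2 and Ankrd1 being the exceptions, and of 8 with control antibody, all but Ctgf. For Ctgf in the anti-VEGF library the order was collagen-gated cells (111 CPM), cells of both gates (63.1 CPM), cells of neither gate with 2 collagen genes (23.6 CPM) and macrophage-marker cells (1.41 CPM), with intervals that did not overlap. In the control library cells of both gates (102.5 CPM) came before collagen-gated cells (58.3 CPM). Ankrd1 was highest in cells of neither gate with 2 collagen genes in the anti-VEGF library, at 48.7 CPM beside 34.3 CPM in collagen-gated cells. In the control library it was second there, at 70.0 CPM beside 79.4 CPM. Of all Ankrd1 UMIs, 41.8% in the anti-VEGF and 31.3% in the control library were in those cells, against 10.9% and 3.90% of all Ctgf UMIs.

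The upstream arm of the pathway was set beside the members in collagen-gated cells. Of 14 kinases and adaptors listed beside the members, all with at least 30 UMIs, 0 were at least 1.5-fold higher and 0 lower with anti-VEGF, beside 3.08% and 2.48% of all genes, so that the count does not set them apart. Their median log2 ratio was -0.17, with 1 of 14 above 0. Wwc2, which encodes a relative of the adaptor KIBRA, was at 73.4 CPM with anti-VEGF and 82.7 CPM with control antibody. Stk3, which encodes the kinase MST2, was at 69.9 and 83.8 CPM. The ratios ran between 0.687 for Ptpn14, a phosphatase that binds YAP, and 1.03 for the LIM protein gene Ajuba. Of 5 TEAD partners, 4 had at least 30 UMIs, and again 0 were higher and 0 lower, with Tead2 at 76.7 and 84.5 CPM.

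Among 16 other targets of YAP and TAZ, 14 had at least 30 UMIs and 2 were at least 1.5-fold higher, where 3.08% of all genes were, and 0 lower, where 2.48% were, with a median log2 ratio of 0.16. The most counted of them, Asap1 and Myof, were close to even, at 180 against 162 CPM and 144 against 146 CPM. Axl, which encodes a receptor tyrosine kinase, was at 111 CPM with anti-VEGF and 93.9 CPM with control antibody (1.19, 1.11 to 1.27). The 2 that passed were Nt5e, at 1.83 and 0.830 CPM, and Igfbp3, a secreted binder of insulin-like growth factors. Igfbp3 had 131 UMIs in anti-VEGF collagen-gated cells and 0 in control ones. It rested on 9 cells, 5 of which held 125 of the UMIs, and over all kept cells the order was the reverse, with 315 UMIs in 38 anti-VEGF cells and 957 UMIs in 37 control cells.

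Immediate early genes and targets of the actin-regulated factor SRF, which other signals also induce alongside the CCN genes, were set beside the members. Of 9 immediate early genes 0 were at least 1.5-fold higher, where 3.08% of all genes were, and 1 was lower, where 2.48% were. The lower one was Atf3, at 92.0 CPM with anti-VEGF and 186 CPM with control antibody (0.495, 0.465 to 0.527). Jun was at 2164 CPM with anti-VEGF and 2638 CPM with control antibody, and Klf4 had the highest ratio, 1.31. Their median log2 ratio was -0.26, near that of the members, and the part of immediate early expression in the lower Cyr61 was not tested. Of 6 SRF targets 3 had at least 30 UMIs, while Tagln, Myl9 and Cnn1 had fewer. Vcl was at 115 CPM with anti-VEGF and 106 CPM with control antibody, and Srf itself at 14.5 and 13.2 CPM (1.10, 0.907 to 1.34). Acta2, the smooth muscle actin, was at 3.01 CPM (56 UMIs) and 0.377 CPM (5 UMIs).

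In macrophage-marker cells 2 of the 14 upstream genes were at least 1.5-fold higher with anti-VEGF, where 2.68% of all genes were, and 0 lower, where 1.44% were. They were Wwc1, the gene of KIBRA, at 7.42 and 2.97 CPM (2.50, 2.21 to 2.82), and Frmd6, at 9.58 and 4.77 CPM (2.01, 1.82 to 2.22). Among other targets with at least 30 UMIs, 3 of 15 were higher and 1 was lower, beside the same shares of all genes. The lower one was Axl, at 37.4 CPM with anti-VEGF and 57.6 CPM with control antibody (0.649, 0.625 to 0.674). Nt5e, the gene of the ecto-nucleotidase CD73, was at 50.2 and 27 CPM (1.86, 1.79 to 1.94). Axl and Nt5e, both counted as targets of YAP and TAZ, thus differed between the libraries in opposite directions in these cells.

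The genes whose levels followed the members most closely were sought over 16 profiles, 8 cell groups in each of the 2 libraries. By Pearson r of log2(CPM + 1) with the mean of the members, the 5 highest of 10321 genes were Ogn (0.993), Gpc6 (0.993), Hspb2 (0.992), Csgalnact1 (0.990) and Sdc2 (0.990). Ogn encodes osteoglycin, a small proteoglycan of connective tissue, and Gpc6 and Sdc2 encode cell-surface heparan sulphate proteoglycans. In macrophage-marker cells Ogn was at 1.99 CPM with anti-VEGF and 0.431 CPM with control antibody. Among the members themselves r was lowest for Lats2, at 0.59, and lay between 0.91 and 0.98 for the other 8. Each member is part of the mean it was compared with, and the profiles were split by the collagen gate. High values for those 8 thus follow in part from how r was taken and are no separate evidence. The profiles share libraries and depth, so these values are descriptions.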

How the data were processed

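Live CD45-sorted cells of 2 droplet libraries, 1 per antibody, were compared. The authors deposited UMI counts for each gene in each called cell barcode, without normalization. The submitters' processing notes name Cell Ranger 3.0.2 and build mm10, whereas version 3.1.0 stands in the matrix headers. Gene positions come from GENCODE M21 (GRCm38), which matched 31011 of 31053 feature IDs, and 71 features share a symbol.

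Cells needed 300 detected genes, 500 UMIs and no more than 10% of UMIs from mitochondrial genes. Gates were set on marker genes at 10 UMIs per 10000. No doublet caller was run, and cells passing both gates were kept apart. UMIs were summed per cell group and library and divided by the group total (CPM). Levels have exact Poisson, ratios exact conditional binomial and shares exact Clopper-Pearson 95% intervals, which cover counting error only. Log2 ratios used a pseudocount of 1 CPM, and the background is every gene with at least 30 UMIs in the groups compared. Shares were compared after thinning cells to 5000 UMIs, leaving out shallower ones. Values were computed with numpy 2.4.6, scipy 1.17.1 and pandas 2.3.3, and the ratio step was tested on simulated counts.

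The members and lists were chosen with earlier results of these data known. The plan was to name from each list the 2 genes with the most UMIs and the highest and lowest ratio. The text does not keep to it throughout, since Junb, Tead4 and Crim1, for example, met this rule and are not described. Other genes were named after their values were seen. Genes of chromosome 18 and of immunoglobulins, T-cell receptors, ribosomes, mitochondria, haemoglobin and sex chromosomes' Xist and Y-linked genes were not named. Alternatives covered the cell filter, gates, Ptprc, depth, averaging, thinning, pseudocount and scaling (12 settings), and 5 further settings were chosen after seeing the data.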

Additional observations from a re-analysis of the deposited data

Results flagged for a closer look

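For 4 members the anti-VEGF to control ratio lay below 1 in collagen-gated cells and above 1 in macrophage-marker cells, with intervals that exclude 1 on either side. With 1 library per group the difference between the cell groups was not tested. Wwtr1 had ratios of 0.817 and 1.81, Tead1 of 0.768 and 2.10, Amotl2 of 0.823 and 2.55, and Cyr61 of 0.673 and 2.54, the collagen-gated value first in each case. The macrophage-marker values rest on few UMIs (54 and 24 for Amotl2 with anti-VEGF and control antibody). In macrophage-marker cells without a collagen UMI the ratios were 1.28 for Wwtr1, 1.91 for Tead1, 1.07 for Amotl2 and 0.962 for Cyr61. With the mean over all macrophage-marker cells the log2 ratios of Tead1 and Cyr61 were -0.19 and -0.17.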

How the results depend on the processing

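In collagen-gated cells the members' median log2 ratio of anti-VEGF over control stayed between -0.27 and -0.13 under the 12 planned settings, and each member kept its direction in all 12 except Lats2, which kept it in 9. The number of members at least 1.5-fold lower became 2 without the 5% of cells with the highest UMIs, with gates at 30 UMIs per 10000, in cells without Ptprc and after thinning, and the number higher became 2 with the mean over cells. In macrophage-marker cells the median of 0.50 became 0.12 with the mean over cells, 0.24 after thinning and 0.11 with a pseudocount of 10 CPM, and -0.012 in cells without a collagen UMI, a setting chosen after seeing the data. The 3 members higher there became 5 at 5% mitochondrial UMIs and with gates at 5, 1 with the mean over cells, after thinning and without a collagen UMI, and 0 with a pseudocount of 10 CPM. Cyr61 turned to -0.17 with the mean over cells, and to -0.027 without a collagen UMI, where Ctgf turned to -0.012. Among members not 1.5-fold higher there, Tead1 turned to -0.19 with the mean over cells, Yap1 to -0.34 and Ankrd1 to -0.056 after thinning, and Ankrd1 to -0.0063 with gates at 30; without a collagen UMI Yap1 was at -0.058 and Ankrd1 at -0.069. The 8 of 9 members higher in collagen-gated than macrophage-marker cells stayed 8 under all 12 planned settings. Their median was 4.74 with gates at 5, 4.68 after thinning, 2.12 with a pseudocount of 10 CPM and 4.86 without a collagen UMI in the anti-VEGF library, and 2.72 with a pseudocount of 10 CPM in the control library. The causes were not tested. The log2 ratio of the TMM factors, anti-VEGF over control, was -0.07 in collagen-gated and -0.10 in macrophage-marker cells. For collagen-gated over macrophage-marker cells it was 0.20 in the anti-VEGF and 0.18 in the control library. TMM scaling subtracts these values, so it raised the log2 ratios between antibodies and lowered those between cell groups. No paired analysis was possible because each group is 1 library. Apart from Lats2, each member was seen in under 6% of macrophage-marker cells, so its ratio there rests on few cells. The part of depth in this was not tested.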
